A study of Mus musculus with 96 samples.

Results

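The 10 genes described here belong to the response of the liver cell to stress in the endoplasmic reticulum (ER): Hspa5, Dnajb9, Sdf2l1, Creld2, Herpud1, Xbp1, Atf4, Atf3, Ddit3 and Trib3. They were taken by symbol from the array annotation, all 10 were measured, and they are 10 of the 18193 genes tested. A gene with several probe sets is read from the brightest one on average. The livers came from female and male CD-1 mice, an outbred stock, fed a diet with PB at 150, 75, 15, 1.5, 0.15 or 0 mg/kg-day for 7 or 2 days. Each of the 24 combinations of sex, day and dose has 4 arrays, 96 in all. The unit of dose is that of the design text, while the titles of the samples write the numbers with ppm. The labels do not spell out PB, which in work on the nuclear receptor CAR usually means phenobarbital. They name no genotype, age or vehicle, and they do not say whether each array is a separate mouse, so every p-value measures the spread between these arrays, which may be partly technical.

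Secreted and membrane proteins are folded in the ER, and hepatocytes, which make most plasma proteins and hold drug-metabolising enzymes in ER membrane, carry a heavy folding load. When unfolded protein builds up, the sensors IRE1, ATF6 and PERK signal to the nucleus, a programme called the unfolded protein response. IRE1 splices Xbp1 mRNA, ATF6 is released by cleavage in the Golgi, and PERK lowers protein synthesis while favouring translation of ATF4. XBP1 and ATF6 switch on chaperones and the machinery that degrades misfolded protein, whereas ATF4 switches on Atf3, Ddit3 and Trib3.

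Short promoter elements through which these branches are known to act were searched for, and the 4 of 10 promoters with a match are shown because their genes include the one that fell and the pair that varied most closely together. Sequences are from RefSeq (GRCm38.p6), where all 10 genes matched an entry, and each run holds the 150 bases before the gene's start, written 5′ to 3′ on the gene's strand with the matched element in capitals. The Hspa5 stretch is chr2:34771940-34772089 on the plus strand, with the ER stress element (ERSE). The Creld2 stretch is chr15:88819496-88819645 on the plus strand, with the same element in reverse orientation. The Herpud1 stretch is chr8:94386279-94386428 on the plus strand, with a C/EBP-ATF element in reverse orientation and, nearer the start, the second ER stress element (ERSE-II). The Atf3 stretch is chr1:191183334-191183483 on the minus strand, with a C/EBP-ATF element in reverse orientation.
Hspa5: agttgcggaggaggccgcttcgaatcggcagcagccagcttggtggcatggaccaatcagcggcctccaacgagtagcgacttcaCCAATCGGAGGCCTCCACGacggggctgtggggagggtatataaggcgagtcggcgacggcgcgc
Creld2: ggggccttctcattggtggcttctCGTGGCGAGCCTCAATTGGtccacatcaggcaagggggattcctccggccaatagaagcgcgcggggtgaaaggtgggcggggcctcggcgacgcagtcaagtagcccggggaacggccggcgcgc
Herpud1: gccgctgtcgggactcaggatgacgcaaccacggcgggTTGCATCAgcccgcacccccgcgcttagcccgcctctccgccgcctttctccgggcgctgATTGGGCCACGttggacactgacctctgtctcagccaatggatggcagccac
Atf3: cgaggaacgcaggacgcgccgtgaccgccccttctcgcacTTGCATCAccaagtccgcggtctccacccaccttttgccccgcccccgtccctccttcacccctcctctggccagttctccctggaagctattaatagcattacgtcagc

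Matches were sought on both strands of the 250 bases before the start. ERSE, searched as CCAAT, 9 bases of any kind and CCACG, lay in Hspa5 and Creld2 and in 37 of all 32851 windows (0.113%). The Herpud1 window ends in CCAAT, 9 bases and CCAC, which is ERSE short of its last base. Matches running past the start were not sought, so whether Herpud1 holds ERSE was not settled. ERSE-II, searched as ATTGG, 1 base of any kind and CCACG, lay in Herpud1 and in 10 of all windows (0.0304%). The C/EBP-ATF element, searched as TGATGCAA, lay in Herpud1 and Atf3 and in 260 of all windows (0.791%). The element UPRE, searched as TGACGTGG, was found in 185 windows (0.563%) and in none of the 10 genes. No match overlapped another, and a match is a description of letters, not evidence of binding.

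Signals are log2 values as deposited, with array medians between 5.35 and 5.44. The 10 hepatocyte markers measured averaged between 13.63 and 13.89 on every array, while markers of cholangiocytes (4.76 to 5.41), pancreatic acinar cells (5.71 to 6.47) and B and plasma cells (5.48 to 5.89) lay near or not far above the array medians. These list averages are descriptions, since probe sets cannot be compared with each other as levels. Cyp2b10, the classic target of CAR and the check that the diet acted, was 43.3-fold and 68.9-fold higher at 150 than at 0 in females and males on day 2, and 45.8-fold and 66.7-fold higher on day 7. On 2 arrays of males on day 2 it went against the label: 13.66 in the array labelled 15, replicate 1 (the other 3 between 11.07 and 11.29) and 10.98 in the array labelled 75, replicate 1 (the other 3 between 13.19 and 13.36). These 2 arrays enter no comparison of 150 with 0, and results that use them are given without them where a call changed. In liver RNA, fewer cells of a type and less RNA per cell cannot be told apart.

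At 150 mg/kg-day, only Herpud1 among the 10 genes passed the test, and it fell, in both sexes on day 2. The comparison asks which genes responded to the top dose, with dose 0 of the same sex and day as the control. In females on day 2, 1 of 10 was lower and 0 higher, against 2.14% of all genes lower and 3.32% higher. In males on day 2, again 1 was lower and 0 higher, against 2.4% and 2.5% of all genes. On day 7 no member passed limma's test in either sex, while 0.923% of all genes were lower and 1.52% higher in females, and 0.835% lower and 2.2% higher in males. Groups that did not overlap were those of 1 member (lower) in females and 2 (lower) in males on day 2, of 2 higher and 1 lower in females on day 7, and of 0 in males on day 7. Among all genes such groups were 5.61% lower and 4.54% higher in females on day 2, 5.99% and 4.26% in males on day 2, 4.34% and 4.31% in females on day 7, and 2.89% and 5.13% in males on day 7. Unadjusted p-values under 0.05 were reached by 2 members in females and 4 in males on day 2, and by 2 in each sex on day 7. No share of all genes was counted at this unadjusted threshold, so these counts cannot be set against a background. The median change of the 10 genes on day 2 was -0.06 in females and -0.28 in males (all genes -0.025 and -0.019). In males on day 2 the median was also negative at lower doses: -0.31 at 0.15, -0.22 at 1.5, -0.18 at 15 and -0.32 at 75. The negative median there was thus not particular to 150, and all doses share the controls at 0. In females on day 2 it lay between -0.14 and 0.08 at lower doses. On day 7 the median change at 150 was 0.20 in females and 0.28 in males (all genes -0.018 and 0.003). At lower doses it lay between 0.07 and 0.21 in females and between 0.01 and 0.19 in males.

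**Figure D1:**
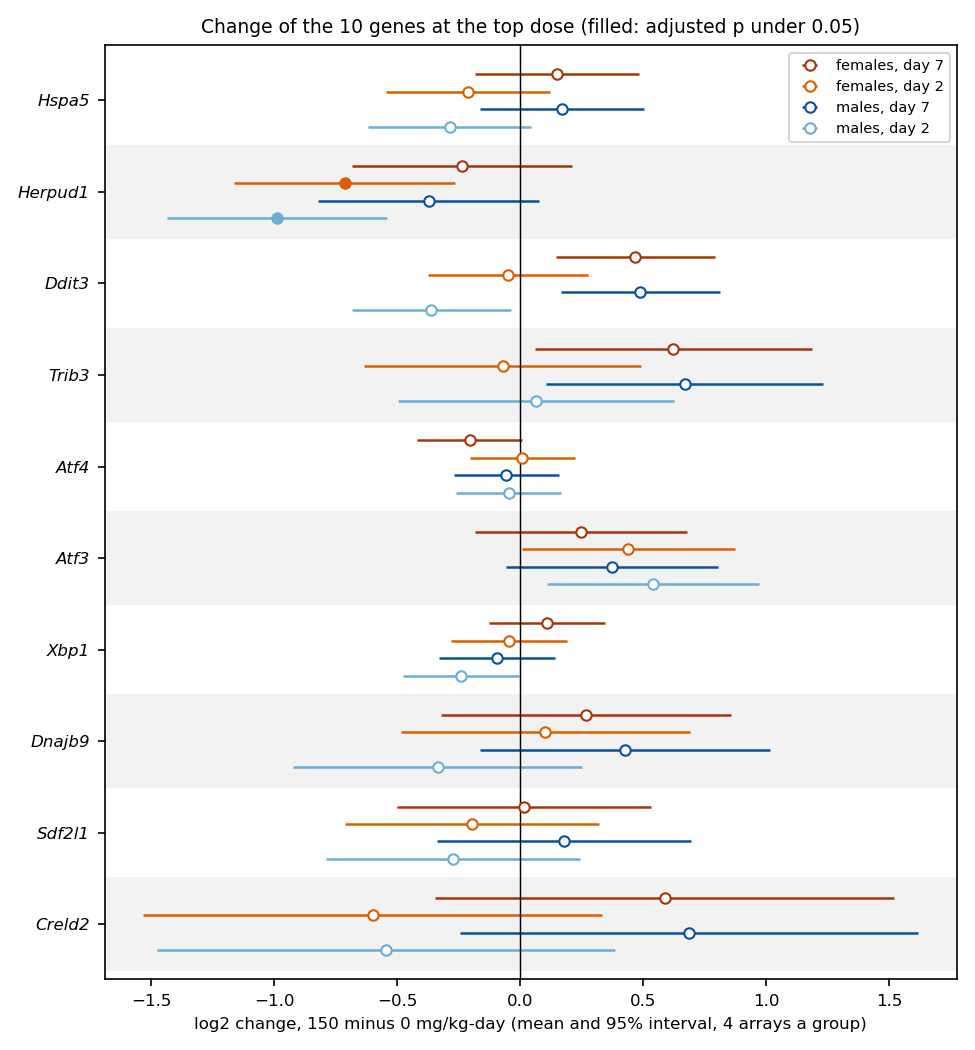
Log2 change of each of the 10 genes at 150 minus 0 mg/kg-day (horizontal axis), with limma's 95% interval, by sex and day (4 arrays a group). Filled points passed an adjusted p of 0.05: only Herpud1 in females (-0.71) and males (-0.99) on day 2.

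Herpud1 encodes a membrane protein of the ER that helps assemble the complex for degradation of misfolded proteins. In females on day 2 its signals were 11.67, 11.45, 11.62 and 11.17 at 150, against 11.93, 12.61, 12.22 and 12.01 at 0. All 4 dosed arrays lay below all 4 controls, as they did for 5.61% of all genes. The means were 11.48 ± 0.23 at 150 and 12.19 ± 0.30 at 0 (SD, n = 4 each), a change of -0.71 ± 0.22 (SE; 95% interval -1.16 to -0.27; 1.64-fold lower; limma adjusted p = 0.0422). That call is close to the threshold and was lost when any of 5 of the 8 arrays was left out: dose 150 replicates 1, 2 and 4 and dose 0 replicates 2 and 3, with changes between -0.80 and -0.58 over the 8 fits and an adjusted p of up to 0.199.

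In males on day 2, Herpud1 read 11.59, 11.41, 11.86 and 12.20 at 150, against 12.94, 12.31, 12.97 and 12.79 at 0. The groups did not overlap here either, as in 5.99% of all genes. The means were 11.76 ± 0.34 at 150 and 12.75 ± 0.31 at 0 (SD, n = 4 each), a change of -0.99 ± 0.22 (SE; 95% interval -1.44 to -0.54; 1.99-fold lower; limma adjusted p = 0.00232), which kept its call without any single array. A test over all 5 doses uses the same arrays at 150 and 0 again, so it is not separate support. It called Herpud1 in this stratum (F = 5.61, adjusted p = 0.00876), the only member called in any stratum. The call of that test was lost without dose 150 replicate 2. It also covers the 2 arrays whose Cyp2b10 went against their labels, and without them the count of members called did not change. The background of that test was 3.63% of all genes in males on day 2, 6.62% in females on day 2, 2.33% in males on day 7 and 2.15% in females on day 7. The second probe set of Herpud1, correlated with the first at r = 0.983 over the 96 arrays, changed by -0.63 in females and -0.99 in males.

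On day 7 Herpud1 at 150 was not distinguishable from 0. Females read 12.03, 11.80, 10.90 and 11.86 at 150, against 11.77, 12.05, 11.83 and 11.89 at 0, a change of -0.24 (95% interval -0.69 to 0.21; adjusted p = 0.721). Males read 12.16, 12.09, 12.01 and 12.46 at 150, against 12.88, 12.25, 11.98 and 13.10 at 0, a change of -0.37 (95% interval -0.82 to 0.08; adjusted p = 0.456). The groups overlapped in both sexes. The change on day 7 minus that on day 2 was 0.48 in females (adjusted p = 0.78) and 0.62 in males (adjusted p = 0.546), so a difference between the days was not shown.

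The dose series of Herpud1 in males on day 2 had group means of 12.75 at 0, 12.26 at 0.15, 12.47 at 1.5, 12.61 at 15, 12.01 at 75 and 11.76 at 150. The 4 arrays at 75 read 11.89, 12.05, 11.87 and 12.22, all below the controls, with a change of -0.75 (95% interval -1.19 to -0.30; adjusted p = 0.136). Replicate 1 at 75 (11.89) and replicate 1 at 15 (12.28) are the 2 arrays whose Cyp2b10 went against their labels, so these 2 group means are uncertain. In females on day 2 the group means were 12.19 at 0, 11.87 at 0.15, 11.94 at 1.5, 12.07 at 15, 11.85 at 75 and 11.48 at 150, with overlap at every dose below 150. No member passed the test at any dose from 0.15 to 75: 0 of 40 gene and dose pairs in each stratum, against 0.118% of all pairs in females on day 2, 0.12% in males on day 2, 0.197% in females on day 7 and 0.066% in males on day 7. Unadjusted p-values under 0.05 occurred for 3, 1, 2 and 2 members at 0.15, 1.5, 15 and 75 in males on day 2, for 1 member at 15 in females on day 7, and otherwise for none. Again no share of all genes was counted at that threshold. All doses of a stratum share the same 4 arrays at 0, so their changes are not independent of each other.

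**Figure D2:**
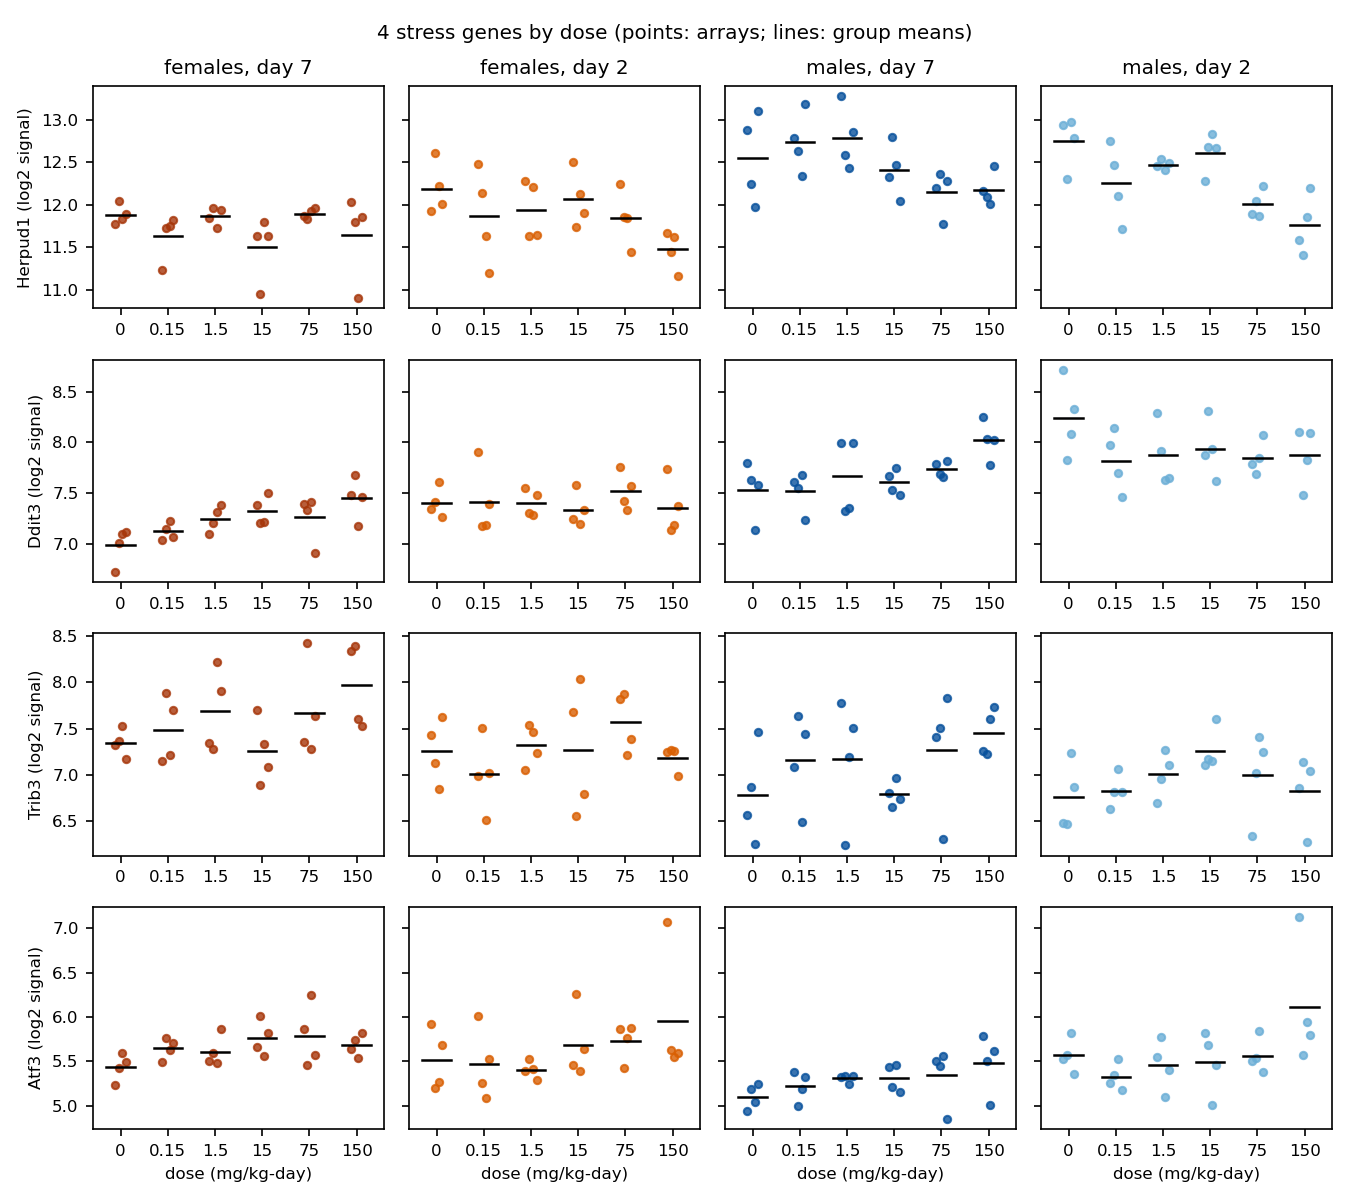
Log2 signal of Herpud1, Ddit3, Trib3 and Atf3 (rows) against dose in mg/kg-day (equally spaced, 0 to 150) for each sex and day (columns), with arrays as points and group means as lines. Herpud1 is lowest at 150 on day 2 in both sexes, and 1 array per sex carries the high Atf3 values at 150 on day 2.

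Ddit3, which encodes CHOP, a transcription factor linked to cell death under lasting ER stress, was higher at 150 than at 0 on day 7 when the changes of both sexes were averaged. In the fit to all 96 arrays it passed in neither sex alone, while other fits called it in 1 sex: males with array weights (0.56; adjusted p = 0.0318) and females with their own 24 arrays (adjusted p = 0.0385). Females read 7.48, 7.68, 7.17 and 7.46 at 150, against 6.72, 7.00, 7.10 and 7.11 at 0, with no overlap (as for 4.31% of all genes in that direction), and a change of 0.47 that missed the threshold (adjusted p = 0.121). Males read 8.25, 8.03, 7.78 and 8.02 at 150, against 7.79, 7.63, 7.13 and 7.58 at 0, overlapping by a single control, with a change of 0.49 (adjusted p = 0.0847). The mean of both changes, an analysis added after these values were seen and resting on the same arrays, was 0.48 ± 0.11 (SE; 95% interval 0.25 to 0.71; 1.39-fold; adjusted p = 0.00277). In it 2 members were higher and 0 lower on day 7, against 5.17% and 3.49% of all genes.

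That result holds for 1 of 2 probe sets. The other Ddit3 probe set, with a mean signal of 5.52 near the array medians, changed by -0.12 in females and -0.04 in males on day 7, and with the probe sets averaged the mean change was 0.20 (adjusted p = 0.274). The control means on the 2 days were as follows. At dose 0, Ddit3 averaged 6.98 on day 7 and 7.41 on day 2 in females, and 7.53 on day 7 and 8.24 on day 2 in males, with no overlap in either sex (2.5% and 2.83% of all genes in that direction), although neither difference passed (adjusted p = 0.456 and 0.398). At 150 it averaged 7.45 on day 7 and 7.36 on day 2 in females, and 8.02 on day 7 and 7.88 on day 2 in males. The change at 150 on day 7 minus that on day 2, averaged over the sexes, was 0.68 ± 0.16 (SE; adjusted p = 0.0072), the only such difference among the 10 genes, against 0.83% of all genes higher and 1.25% lower. It was not called within females (0.52, adjusted p = 0.518) or males (0.85, adjusted p = 0.111), nor with the probe sets averaged.

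Trib3 encodes a pseudokinase induced by ATF4 and CHOP that binds the kinase AKT. On day 7 females read 8.34, 8.39, 7.60 and 7.53 at 150, against 7.32, 7.36, 7.52 and 7.17 at 0, which did not overlap, although the lowest dosed array stood just above the highest control. Among all genes 4.31% did not overlap in that direction. Males read 7.25, 7.23, 7.61 and 7.74 at 150, against 6.57, 6.87, 6.25 and 7.46 at 0, with 1 control inside the dosed range. The changes were 0.62 in females (adjusted p = 0.29) and 0.67 in males (adjusted p = 0.211). Their mean of 0.64 ± 0.20 (SE; 95% interval 0.25 to 1.04; 1.56-fold; adjusted p = 0.0276) passed, and lost its call without any of 6 of the 16 arrays: in females dose 150 replicates 1 and 2 and dose 0 replicate 4, and in males dose 150 replicate 4 and dose 0 replicates 1 and 3 (0.56 to 0.76 over the 16 fits). The second Trib3 probe set changed by 0.93 in females and 1.10 in males. On day 2 the changes were -0.07 in females and 0.06 in males, and neither passed.

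Atf3, an early stress factor of the ATF family, had 1 high array in each sex at 150 on day 2. It was replicate 1 in both sexes, and the titles do not say what the replicate numbers mark. Females read 7.07, 5.62, 5.55 and 5.59 at 150, against 5.92, 5.20, 5.27 and 5.69 at 0. Males read 7.13, 5.57, 5.94 and 5.80 at 150, against 5.53, 5.57, 5.82 and 5.36 at 0. Apart from the high array in each sex, all 3 female signals at 150 lay within the range at 0, and 2 of 3 male signals did. All but the high arrays lay near the array medians. The changes were 0.44 in females (adjusted p = 0.297) and 0.54 in males (adjusted p = 0.16), and their mean was 0.49 (adjusted p = 0.0216). In that mean 1 member was higher and 1, Herpud1, lower (-0.85; adjusted p = 3.46e-05), against 5.36% and 6.72% of all genes. Without the high female array the Atf3 mean was 0.30 (adjusted p = 0.182), without the high male array 0.32 (adjusted p = 0.165), and the call was also lost without female dose 0 replicate 2 or 3 or male dose 0 replicate 4.

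Atf4, the factor whose protein rises mainly through translation, changed little in mRNA. At 150 minus 0 it moved by 0.01 in females and -0.05 in males on day 2, and by -0.21 in females and -0.06 in males on day 7. In females on day 7 the arrays read 10.20, 10.22, 10.33 and 10.27 at 150, against 10.34, 10.50, 10.39 and 10.62 at 0, with no overlap (4.34% of all genes in that direction) and an adjusted p of 0.397. Its second probe set, with a lower mean signal, changed by -0.62 in females and -0.40 in males on day 2, unlike the first.

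Xbp1, whose spliced mRNA encodes the active factor, was read as a whole here, since the annotation does not separate the spliced form. Its changes ran from -0.24 in males on day 2 to 0.11 in females on day 7, and none passed. Those of its dimmer probe sets, which were not tested singly, ran from -0.367 in males on day 2 to 0.225 in females on day 7. The arrays of males on day 2 read 12.04, 12.29, 12.42 and 12.12 at 150, against 12.48, 12.51, 12.37 and 12.47 at 0, overlapping at 1 array on each side (adjusted p = 0.292).

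Among the chaperones, Hspa5 encodes BiP, the main Hsp70 of the ER and the usual sign of an active unfolded protein response. In males on day 2 it read 13.48, 13.23, 13.33 and 13.45 at 150, against 13.85, 13.50, 13.48 and 13.81 at 0. The dosed arrays all lay below the controls, as for 5.99% of all genes, although the nearest values, 13.48 on each side, were almost equal. The change was -0.29 (95% interval -0.62 to 0.05; adjusted p = 0.415). In females on day 2 the change was -0.21 (adjusted p = 0.602), and on day 7 it was 0.15 in females and 0.17 in males (adjusted p = 0.784 and 0.72). The upper ends of the 95% intervals for Hspa5 lay at 0.12 in females and 0.05 in males on day 2, and at 0.48 and 0.50 on day 7, on the log2 scale. The second brightest Hspa5 probe set changed by -0.28 and -0.37 on day 2 and by 0.20 and 0.32 on day 7 in females and males. The dimmest changed by between -0.14 and 0. Neither was tested singly.

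Creld2, an ER protein with disulphide-rich domains that is induced by ER stress, had the widest spread of the 10 genes. On day 2 it read 10.34, 10.17, 10.20 and 9.93 at 150, against 10.03, 11.40, 10.60 and 11.00 at 0 in females, and 10.88, 10.19, 10.32 and 10.95 at 150, against 11.84, 10.41, 10.62 and 11.65 at 0 in males. On day 7 it read 10.36, 10.59, 10.86 and 10.08 at 150, against 9.77, 9.31, 9.09 and 11.38 at 0 in females, and 10.89, 10.69, 10.92 and 11.89 at 150, against 10.34, 10.07, 10.05 and 11.19 at 0 in males. The groups overlapped in all 4 strata, and the control arrays of females on day 7 alone ran from 9.09 to 11.38. The changes were -0.60 and -0.55 on day 2 and 0.59 and 0.69 on day 7 in females and males, with 95% intervals of about 0.93 on each side, and none passed. Sdf2l1, a partner of ER DnaJ co-chaperones, changed by between -0.27 and 0.18, and Dnajb9, the BiP co-chaperone ERdj4, by between -0.34 and 0.43, with no call.

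The change at 150 did not differ between the sexes for any member by limma's test (0 of 10 on each day, and 0 at an unadjusted p under 0.05), against 0 and 0.0055% of all genes higher and lower in females minus males on day 2, and 0.022% and 0.066% on day 7. Nor did it differ between day 7 and day 2 within a sex (0 of 10 in each). Among all genes 0.077% were higher and 0.797% lower in females, and 0.0824% higher and 0.0495% lower in males. An unadjusted p under 0.05 was reached by 1 member in each sex, with no share of all genes counted at that threshold. The largest 95% interval of such a difference was 1.32 on each side, for Creld2.

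The sexes did differ in the level of these genes. Among the dosed livers, which hold 20 arrays per sex and day and are separate from the controls, 8 of the 10 genes differed on day 7: Hspa5, Herpud1, Ddit3, Dnajb9, Sdf2l1 and Creld2 were lower in females, and Trib3 and Atf3 higher. The background on day 7 was wide, with 13.4% of all genes lower and 17.1% higher in females. On day 2, 3 were lower (Herpud1, Ddit3 and Atf4) and 1 higher (Xbp1), against 7.65% lower and 11.5% higher. At dose 0, with 4 arrays per group, Ddit3 was lower in females on day 2 (0.962% lower and 1.09% higher among all genes), and Ddit3 and Dnajb9 on day 7 (2.08% lower and 4.63% higher). Markers of Kupffer cells, the resident macrophages, also differed between the sexes in dosed livers: 11 of 12 were higher in females on day 7 (median 0.43) and 12 of 12 on day 2 (median 0.44), while 4 of 10 hepatocyte markers were higher and 2 lower on day 7, and 1 higher and 1 lower on day 2. Of 7 stellate cell markers, 4 were higher in dosed females on day 7, and 1 was higher and 1 lower on day 2, and of 9 endothelial markers 2 were higher on day 7 and 3 on day 2. The part of these markers in the sex differences of the 10 genes was not tested. Other ER genes differed by sex as well: in dosed females on day 7, 12 of 20 chaperones and folding enzymes and 15 of 20 genes for degradation and translocation were lower and 0 higher, with medians of -0.16 and -0.17 (all genes -0.007). On day 2, 3 of 20 were lower and 0 higher in each list.

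Dnajb9, which hands misfolded proteins to degradation and holds IRE1 in check, had the largest sex difference of the 10 at dose 0 and in dosed livers on day 7, though not in dosed livers on day 2, where Ddit3 differed more. In dosed livers on day 7 its signal had a median of 10.46 in females (10.12 to 10.76) and 11.78 in males (10.62 to 12.35), so that the ranges barely met. Females were lower by 1.22 on the log2 scale, with means of 10.46 and 11.69 in females and males (limma adjusted p = 3.13e-12). On day 2 the dosed medians were 11.12 in females (10.52 to 11.87) and 11.49 in males (10.41 to 12.13), and the difference of -0.34 did not pass (adjusted p = 0.0575). The sex difference on day 7 minus that on day 2 was -0.88 ± 0.19 (SE; 95% interval -1.26 to -0.51; adjusted p = 0.00243), the only such call among the 10 genes, against 0.857% of all genes lower and 1.15% higher.

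At dose 0 the same gene read 10.55, 10.32, 10.24 and 9.86 in females and 11.70, 11.17, 10.53 and 12.18 in males on day 7, with 1 male array inside the female range. The difference was -1.15 ± 0.30 (SE; adjusted p = 0.00702) and lost its call without male replicate 4 (-0.89; adjusted p = 0.0913). On day 2 it was -0.90 (adjusted p = 0.102). Between the days, the dosed female livers had less Dnajb9 on day 7 than on day 2 (10.46 and 11.13; -0.66; adjusted p = 0.000213), while the dosed males had 11.69 on day 7 and 11.47 on day 2 (0.22; adjusted p = 0.429). In females that was the only one of the 10 genes to differ between the days in dosed livers (5.8% of all genes higher and 5.66% lower). In dosed males only Atf4 did (-0.18; adjusted p = 0.0186; 1.49% higher and 1.8% lower), and it lost that call without the 2 arrays whose Cyp2b10 went against their labels. At dose 0 no member differed between the days by limma's test. Among all genes 0.0055% were higher and 0.011% lower in females, and 0 in either direction in males. An unadjusted p under 0.05 was reached by 3 members in females and 4 in males, with no share of all genes counted at that threshold.

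**Figure D3:**
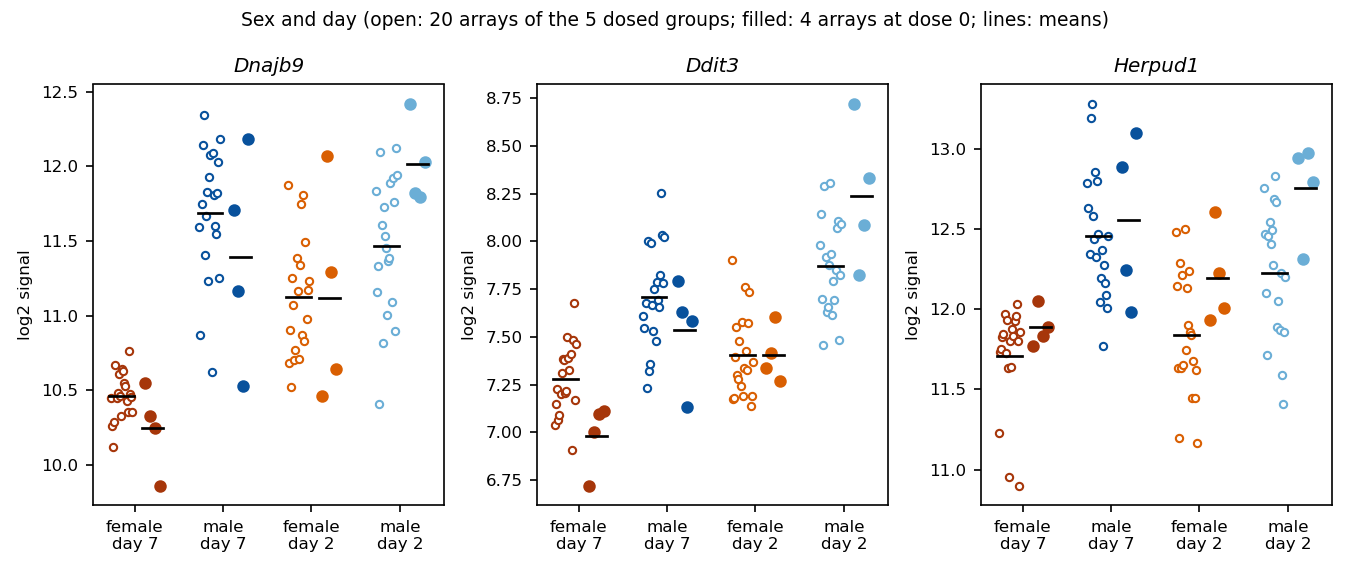
Log2 signal (vertical axis) of Dnajb9, Ddit3 and Herpud1 by sex and day, with the 20 arrays of the 5 dosed groups (open) beside the 4 arrays at dose 0 (filled) and lines at the means. Dnajb9 in dosed females on day 7 lies between 10.12 and 10.76, while dosed males on day 7 lie between 10.62 and 12.35.

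Ddit3 was lower in females in all of these comparisons. At dose 0 on day 2 it read 7.34, 7.42, 7.61 and 7.27 in females and 8.72, 7.82, 8.09 and 8.33 in males, without overlap, as for 3.25% of all genes (-0.83 ± 0.16 SE; adjusted p = 0.000437). On day 7 it read 6.72, 7.00, 7.10 and 7.11 in females and 7.79, 7.63, 7.13 and 7.58 in males, again without overlap, as for 3.89% of all genes (-0.55; adjusted p = 0.0227), and that call was lost without female replicate 1 or male replicate 1, 2 or 4. In dosed livers the difference was -0.46 on day 2 (adjusted p = 6.08e-07) and -0.43 on day 7 (adjusted p = 1.56e-06). The dimmer second probe set differed by -0.49 on day 2 and -0.16 on day 7 at dose 0.

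Herpud1 was lower in dosed females by 0.38 on day 2 (means 11.84 in females and 12.22 in males; adjusted p = 0.00316) and by 0.74 on day 7 (means 11.71 and 12.45 in females and males; adjusted p = 5.41e-09). At dose 0 the differences were -0.56 and -0.67 on days 2 and 7 and did not pass (adjusted p = 0.234 and 0.0569). Hspa5 was lower in dosed females on day 7 (13.15 in females and 13.50 in males; -0.36; adjusted p = 9.52e-05), as were Sdf2l1 (10.30 and 10.83; -0.54; adjusted p = 0.000131) and Creld2 (10.18 and 10.75; -0.58; adjusted p = 0.0277). Trib3 was higher in dosed females on day 7 (7.61 in females and 7.17 in males; 0.44; adjusted p = 0.00422), and so was Atf3 (5.70 and 5.33; 0.37; adjusted p = 0.00207). On day 2, Atf4 was lower (-0.15; adjusted p = 0.0185) and Xbp1 higher (0.15; adjusted p = 0.0307) in dosed females. Without the 2 arrays whose Cyp2b10 went against their labels, 2 members rather than 4 differed on day 2.

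Within groups, some of the 10 genes varied together from array to array and others did not. The measure was each array's deviation from the mean of its own sex, day and dose, over 96 arrays, with p-values from 100000 permutations within groups, adjusted over the 45 pairs. By Pearson's r, 16 pairs passed, 15 positive and 1 negative, and by Spearman's rho 15 pairs, 13 positive and 2 negative. No share of all gene pairs was counted, so these counts cannot be set against a background. Without the 2 arrays whose Cyp2b10 went against their labels, 17 passed.

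The closest pair was Hspa5 and Creld2, the 2 genes with a full ERSE match in the searched window. Their r was 0.928 (rho = 0.912, adjusted p = 9e-05, the smallest the permutations can give after adjustment). Within strata of 24 arrays r was 0.949 in females and 0.92 in males on day 2, and 0.903 in females and 0.941 in males on day 7. Leaving out the 2 arrays farthest from the median of Hspa5 gave 0.915. Sdf2l1, which has neither element in its window, varied with both: r was 0.847 with Creld2 (rho = 0.789; 0.818 without the 2 farthest arrays) and 0.775 with Hspa5 (rho = 0.711; 0.728 without them), each with an adjusted p of 9e-05.

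Herpud1 did not pass with any of these 3 genes. Its r was 0.171 with Hspa5 (rho = 0.16; adjusted p = 0.188), 0.255 with Creld2 (rho = 0.257; adjusted p = 0.0711) and 0.138 with Sdf2l1 (rho = 0.118; adjusted p = 0.265). With Hspa5 it was 0.186 in females and 0.149 in males on day 2, and -0.19 in females and 0.532 in males on day 7. With Dnajb9, Herpud1 had an r of 0.591 (rho = 0.519; 0.606 without the 2 farthest arrays; adjusted p = 9e-05). The relation of Herpud1 and Dnajb9 differed in size between strata, with r = 0.615 in females and 0.568 in males on day 2, and 0.143 in females and 0.771 in males on day 7. Dnajb9 also varied with Hspa5 (r = 0.503, rho = 0.525, adjusted p = 9e-05), and there too females on day 7 stood apart, at r = 0.01 against 0.6 in females on day 2, 0.432 in males on day 2 and 0.784 in males on day 7. Females on day 7 were also the stratum in which Dnajb9 was lowest and its range in dosed livers narrowest. The differences between strata were not tested.

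**Figure D4:**
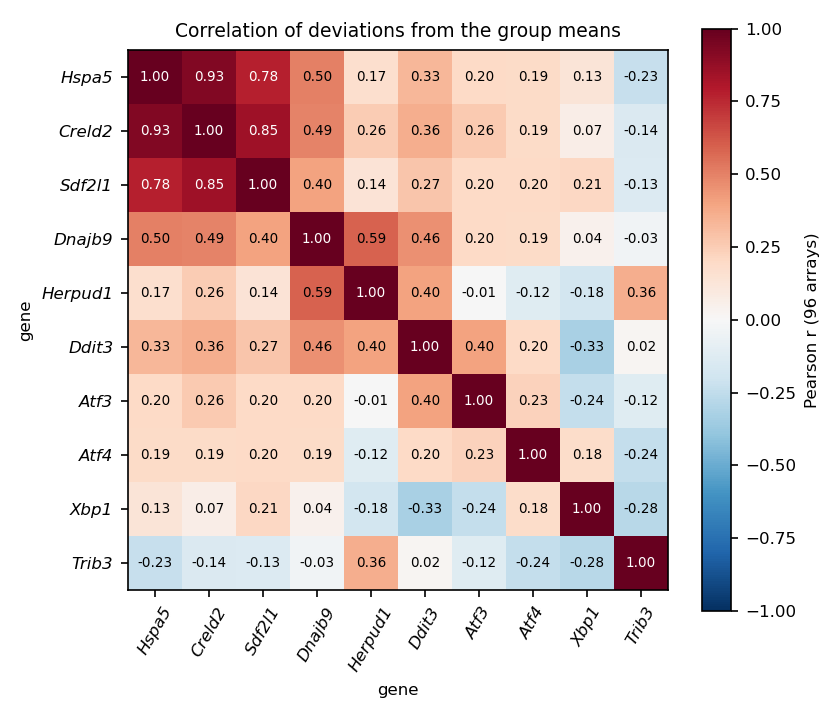
Pearson correlation, for each pair of the 10 genes (both axes), of the deviations of 96 arrays from their group means, from -1 (blue) to 1 (red). Hspa5, Creld2 and Sdf2l1 form a block with r from 0.775 to 0.928, and Trib3 has its highest r with Herpud1, at 0.361.

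**Figure D5:**
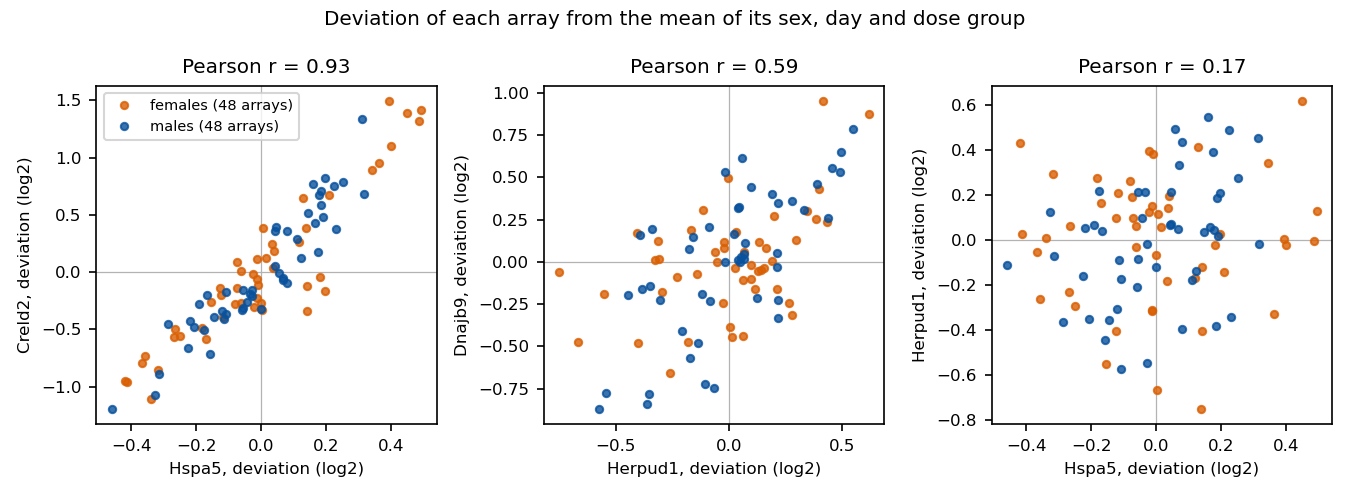
Deviation of each array from its group mean (log2) for Hspa5 and Creld2, Herpud1 and Dnajb9, and Hspa5 and Herpud1, with females and males in different colours (48 arrays each). The points of the first pair lie along a line (r = 0.928), those of the second scatter more (0.591), and those of the third scatter most (0.171).

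Ddit3 varied with Dnajb9 (r = 0.455, rho = 0.404, adjusted p = 0.000771), Herpud1 (r = 0.402, rho = 0.355, adjusted p = 0.00351) and Atf3 (r = 0.4, rho = 0.342, adjusted p = 0.00351), but its relation with Trib3 did not pass (r = 0.019, rho = -0.019, adjusted p = 0.893). The pair that was negative by both measures was Ddit3 and Xbp1 (r = -0.326, rho = -0.33, adjusted p = 0.0101), with r = -0.308 and -0.023 in females and males on day 2 and -0.492 and -0.63 on day 7. Trib3 varied with Herpud1 (r = 0.361, rho = 0.34, adjusted p = 0.0081). Its relation with Xbp1 passed by Spearman's rho (-0.288, adjusted p = 0.0474) but not by Pearson's r (-0.279, adjusted p = 0.0711), which passed without the 2 arrays whose Cyp2b10 went against their labels (r = -0.296, adjusted p = 0.0485). In single strata that r was 0.017 and 0.002 in females and males on day 2 and -0.486 and -0.599 on day 7. No pair with Atf4 passed.

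By the same measure, the gene most like Hspa5 among all genes was Manf, a secreted ER stress protein (r = 0.955), followed by Creld2 (0.928) and Uso1, a vesicle tethering factor (0.891). Manf was also the most like Creld2 (0.951). Sdf2l1 was most like Dnajb11, the co-chaperone ERdj3 (0.917), and Pdia4, a protein disulphide isomerase of the ER (0.891). Dnajb9 was most like Arfgap3 (0.848), Creb3l2 (0.843) and Tmem39a (0.837), a different set of genes. The closest gene to Herpud1 was Cln8 at 0.639, and to Ddit3 it was Dnajb4 at 0.604. The part of technical effects of single arrays in these values was not tested. The values describe 96 arrays and say nothing on control.

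Few other genes of the same pathway passed the test at 150 within a sex and day, and more did in the mean of the sexes. Of 20 ER chaperones and folding enzymes, 0 passed limma's test in any sex and day or in the mean of the sexes, with median changes of -0.04 and -0.03 on day 2 and -0.01 and 0.06 on day 7 in females and males. Of 20 genes for ER-associated degradation and translocation, Sec63, a part of the protein import channel, was the one that passed within a sex and day: it fell in females by 0.24 on day 2 (means 9.41 at 150 and 9.65 at 0; adjusted p = 0.0282) and by 0.27 on day 7 (9.22 at 150 and 9.48 at 0; adjusted p = 0.0202). In males its changes were -0.17 and -0.15 on days 2 and 7, and did not pass. In the mean of the sexes, 5 of these 20 genes were higher and 1 lower on day 7 (median 0.15; 5.17% and 3.49% of all genes), and 2 higher and 2 lower on day 2 (median -0.02; 5.36% and 6.72% of all genes). Of 14 measured stress sensors and their proteases, Mbtps2, a protease that cuts ATF6, rose in females on day 2 (8.03 at 150 and 7.75 at 0; 0.28; adjusted p = 0.0367), and Ern1, which encodes IRE1, rose in females on day 7 (10.62 at 150 and 10.27 at 0; 0.35; adjusted p = 0.0146). In the mean of the sexes, 2 of the 14 were higher and 0 lower on day 7, and 1 higher and 1 lower on day 2.

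Of 29 target genes of ATF4, none passed in males on day 7. In the mean of the sexes, 1 was higher and 2 lower on day 7 (5.17% and 3.49% of all genes), and 2 higher and 4 lower on day 2 (5.36% and 6.72%). Cebpg, a partner of ATF4 in binding DNA, fell in females on day 2 (-0.29; adjusted p = 0.0118) and day 7 (-0.32; adjusted p = 0.0108) and in males on day 2 (-0.34; adjusted p = 0.00268), and its change in males on day 7 was -0.25 (adjusted p = 0.0661). Its 4 arrays at 150 lay below its 4 controls in all 4 strata, as did those of 2.89% of all genes in males on day 7 and of 4.34% to 5.99% in the others. Chac1, an enzyme that breaks down glutathione, averaged 6.54 at 150 and 7.65 at 0 in females on day 2 and 6.54 at 150 and 7.36 at 0 in males on day 2, with no overlap in either sex (5.61% and 5.99% of all genes in that direction), and did not pass (-1.11 and -0.82; adjusted p = 0.0656 and 0.238). Fgf21, a hormone secreted by the liver in fasting and stress, fell in females on day 7 (5.16 ± 0.16 at 150 and 6.13 ± 0.55 at 0, SD, n = 4 each; -0.97; adjusted p = 0.00933). Psat1, an enzyme of serine synthesis, rose in females on day 2 (4.99 ± 0.90 at 150 and 4.03 ± 0.24 at 0, SD, n = 4 each; 0.97; adjusted p = 0.000522), though the groups overlapped and the level at 0 lay within the lower quartiles of the arrays (3.91 to 4.09), so it may not be above background. The median changes of the ATF4 targets were 0.03 and -0.09 on day 2 and 0.02 and -0.003 on day 7 in females and males.

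Among markers of other liver cells, those of Kupffer cells moved with dose in males on day 7, the stratum with the highest median change of the 10 genes. Of 12 such markers, 3 rose there, against 2.2% of all genes: Mpeg1 by 1.28 (adjusted p = 0.00452), Cd5l by 1.10 (adjusted p = 0.00835) and Adgre1 by 0.77 (adjusted p = 0.0315). The list's mean signal lay between 9.45 and 10.02 on the arrays at 150 and between 8.58 and 9.24 on those at 0, and in females on day 7 between 9.41 and 9.96 at 150 and between 9.22 and 9.52 at 0. In the other 3 strata none of the 12 passed, with medians of 0.02 and -0.33 in females and males on day 2 and 0.31 in females on day 7. In the mean of the sexes, the contrast in which Ddit3 and Trib3 passed, 6 of the 12 were higher on day 7 (median 0.48) and 0 on day 2 (median -0.17), and in the difference of day 7 minus day 2 the list's median was 0.65 with 1 of 12 called. Of 10 hepatocyte markers, 0 rose in any stratum, and 1 in females on each day and 2 in males on day 2 fell. Of 9 endothelial markers, 2 fell in each sex on day 2, where Herpud1 fell, and 0 in females and 1 in males on day 7. In the mean of the sexes, 4 of 9 endothelial and 4 of 10 hepatocyte markers fell on day 2. On day 7, 1 endothelial and 3 hepatocyte markers fell in that mean, and 0 of either list rose on either day. Of 7 stellate cell markers, 3 fell in males on day 7 and 0 in the other strata. In the mean of the sexes 1 stellate marker fell on day 2 and 3 on day 7. Among all genes 6.72% were lower and 5.36% higher in that mean on day 2, and 3.49% lower and 5.17% higher on day 7. In the difference of day 7 minus day 2, 0.83% were higher. Within a sex and day, between 0.835% and 2.4% of all genes were lower and between 1.52% and 3.32% higher. Of 7 neutrophil markers, 1 rose in females on day 2 and in males on day 7 and 1 fell in females on day 7. Of 8 pancreatic acinar markers, 1 rose in every stratum and 1 fell in females on each day, and none of the 5 cholangiocyte, 9 B and plasma cell and 5 T cell markers passed in any stratum. The part of these shifts in the changes of Herpud1, Ddit3 and Trib3 was not tested.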

How the data were processed

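Liver RNA of 96 CD-1 mouse samples was measured on 1-colour arrays. Per the labels' protocols, Trizol was used for extraction, and 4 μg of RNA went into amplification and labelling with biotin. The authors deposited log2 values, already comparable between arrays (medians 5.35 to 5.44). How they normalized them is not given in the sources used.

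Of 45101 probe sets, 64 controls were left out. Of the rest, 34945 had 1 gene symbol, 932 several and 9160 none, and the last 2 kinds were not used. The probe set brightest on average stood for each of 18193 genes, of which 9010 had several. No array column was left unused.

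Samples were grouped by the sex, day and dose of their titles. Group means were estimated from the 96 arrays in 1 fit by limma 3.58.1 under R 4.3.3 (72 residual and 4.39 prior degrees of freedom), two-sided, with Benjamini-Hochberg adjustment over all genes of a comparison at 0.05. Only genes past that threshold are said to have risen or fallen. Correlations used deviations from group means, with permutations within groups. The procedure was tested on simulated data. Figures were drawn with matplotlib 3.10.9.

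The titles do not say what their replicate numbers mark. The deviations of the 16 pairs of same-numbered arrays at 150 and 0 correlated between -0.161 and 0.139, with 2 over 0.1. Samples were therefore not paired, although these correlations cannot show what the numbers mark.

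The members and lists were chosen with earlier results of these data known. Named were all members, Cyp2b10, up to 5 genes of each other list with the smallest adjusted p at 150, and for each member the 3 genes most like it, of which the text gives a part. The other lists were ER chaperones, degradation and translocation, stress sensors, ATF4 targets, and markers of hepatocytes, Kupffer, endothelial, stellate, cholangiocyte, B and plasma, T, neutrophil and pancreatic acinar cells. Alternatives changed centring, probe sets, a filter on dim genes, weights, samples in the fit and a replicate block. Means over the sexes, comparisons among dosed groups and the omission of 2 arrays were chosen after seeing the data.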

Additional observations from a re-analysis of the deposited data

Results flagged for a closer look

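Of the 240 sets of 4 arrays (10 genes in 24 groups), 11 had a highest or lowest array far from the other 3, where chance gives about 1 in 20. The values are log2 signals, each with the nearest other array. The 3 in groups at 150 were Atf3 in females on day 2, replicate 1, at 7.07 (nearest 5.62), Trib3 in females on day 2, replicate 4, at 6.98 (nearest 7.24), and Sdf2l1 in males on day 7, replicate 4, at 11.46 (nearest 10.73). The high arrays at lower doses were Creld2 in females on day 2 at 0.15 (11.23, nearest 9.51), Sdf2l1 in females on day 7 at 15 (11.44, nearest 10.31), Trib3 in males on day 2 at 15 (7.61, nearest 7.17) and Atf4 in females on day 2 at 75 (10.64, nearest 10.48). The low ones were Herpud1 in females on day 7 at 0.15 (11.23, nearest 11.73), Ddit3 in females on day 7 at 75 (6.91, nearest 7.33), Atf3 in males on day 7 at 75 (4.85, nearest 5.45) and Xbp1 in females on day 7 at 1.5 (12.11, nearest 12.56). None lay in a group at dose 0.

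Effects that differed between groups by a test of the difference were 2. The change of Ddit3 at 150 was larger on day 7 than on day 2 by 0.68, averaged over the sexes, and the sex difference (females minus males) of Dnajb9 in dosed livers changed by -0.88 on day 7 minus day 2. Both contrasts were chosen after seeing the data.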

How the results depend on the processing

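The fall of Herpud1 in males on day 2 passed the test under each alternative run. In females on day 2 the count of members lower was 0 rather than 1 with arrays centred on the median (Herpud1 adjusted p = 0.0548), with probe sets averaged (0.0705), and with 24 arrays (0.101) or 8 arrays (0.0519) in the fit, and 0 to 1 without single arrays. With probe sets averaged, the F test called 1 member in females on day 7, the mean of the sexes called 2 lower on day 2 and 1 higher on day 7, the difference between the days 0, dose 0 on day 7 gave 1 (Ddit3 -0.36, adjusted p = 0.171), and dosed males 0 between the days. Array weights called 1 higher in males on day 7 (Ddit3 0.56, adjusted p = 0.0318), and 24 arrays 1 higher in females on day 7 (Ddit3 adjusted p = 0.0385). Dosed females differed between the days in 2 members with array weights or without dim genes. Without the 2 arrays whose Cyp2b10 went against their labels, 2 members differed by sex in dosed livers on day 2 and 0 between the days in dosed males. Without single arrays, counts ran from 0 to 1 for members higher in the mean of the sexes on day 2 and for the F test in males on day 2, from 1 to 2 for members higher in that mean on day 7 and for dose 0 on day 2, and from 0 to 3 for dose 0 on day 7. The cause of these shifts was not tested. With the replicate block, 1 member was lower in each sex on day 2 and 0 on day 7, as without it, and no other call at 150 changed. No called change reversed its sign. The 4 arrays per group limit what can be seen: the 95% interval of a change at 150 reached 0.93 on each side for Creld2.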
